A study of Oryza sativa with 5 samples.

Results

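The root transcriptome of rice labelled GOS2::OsNAC6 was compared with that of nontransgenic (NT) Nipponbare rice, 1 library a side, across all transcripts whose mean over the pair reached 10 normalized counts. These were 31987 transcripts of 26148 loci, out of 39746 transcripts listed for the pair and 40925 listed in any table of the series. The series held 5 root libraries in all, and 2 of them enter this comparison. The NT plants were untransformed japonica rice of the cultivar Nipponbare. The GOS2::OsNAC6 plants were Nipponbare carrying an OsNAC6 cDNA behind the promoter of the rice gene GOS2, which is described as active in the whole plant. Both groups were 2 weeks old and were grown under conditions the study calls normal, without imposed stress. Both gave total RNA from roots for a strand-specific library. Values for 2 further pairs are set beside those of this comparison where they help: RCc3::OsNAC6, in which a root-specific promoter drives the same gene in Nipponbare, against the same NT library, and nac6, labelled a knockout of OsNAC6, against NT of its own cultivar, Hwayoung. The labels do not say which transgenic line was sequenced or how many plants gave the RNA, so a difference between the libraries cannot be told apart from a difference between 2 lots of roots or from the effects of 1 insertion.

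OsNAC6 belongs to the NAC family, plant transcription factors that share a DNA-binding domain at the N-terminus, and it is induced by drought, salt, cold and abscisic acid. Nicotianamine, made from S-adenosylmethionine by nicotianamine synthase, binds iron, zinc and copper inside the plant, and in grasses it is also the precursor of the mugineic acids that roots secrete to take up ferric iron. Roots further carry large families of secreted peroxidases, expansins and lipid transfer proteins at their walls, and of intracellular immune receptors with an NB-ARC nucleotide-binding domain, and these families are described in turn.

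The NT (Nipponbare) library held 26838552 reads on transcripts and the GOS2::OsNAC6 library 23932464, and transcripts above 0 numbered 38939 and 38593. With 1 library a group there is no test, no replicate spread and no p-value. A transcript is called higher or lower when its value was at least 2-fold apart on the scale of log2((GOS2::OsNAC6 + 1)/(NT + 1)), which understates the change of low transcripts, and each ± is 1 SE of counting error alone. As a check of the tissue, 27 of 75 transcripts for photosystem, chlorophyll-binding and RuBisCO proteins passed the filter on low values, and they summed to 926 normalized counts in NT and 1148 in GOS2::OsNAC6. The RCc3 gene, a marker of rice roots, stood at 7763 and 15033. One RuBisCO transcript, Os02t0152400-01, accounted for most of the difference in the shoot list, with 38.6 in NT and 206.2 in GOS2::OsNAC6.

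The transcript of the introduced gene was not much higher in the library that carries its label. OsNAC6 (Os01g0884300, on chromosome 1 of IRGSP-1.0) had 6215 reads in NT and 6675 in the library labelled GOS2::OsNAC6, or 2819 and 3640 normalized counts, a log2 ratio of 0.37 ± 0.03. Of 2803 transcripts with a mean of at least 1000, 537 (19.2%) had a larger ratio. The reference gene UBQ1 (Os06t0681400-01) stood at 0.24 ± 0.01, and the gene GOS2 itself (Os07t0529800-01), a translation initiation factor whose promoter the transgene uses, at 0.35 ± 0.02. In the library labelled RCc3::OsNAC6 the ratio of OsNAC6 was -0.02 ± 0.03. In the library labelled nac6 it was 0.31 ± 0.03 over NT (Hwayoung), with 8215 reads against 7600, so the counts show no loss of the gene that this label names as knocked out. The OsNAC6 count thus shows neither the rise that the label RCc3::OsNAC6 names nor the loss that the label nac6 names. A count does not show whether the transcript is intact, and the study describes nac6 as a null mutant with a T-DNA insertion. The study also measured OsNAC6 in roots by RNA gel blot, where both overexpressing genotypes showed high levels, and by qRT-PCR. These names stand for the labelled libraries wherever their values are given. In both transgenic libraries, reads of the transgene and of the native gene are counted together, so the OsNAC6 count bounds neither by itself. It does not show a level of OsNAC6 that the GOS2::OsNAC6 label would lead one to look for. Every direction given here is therefore that of the library labelled GOS2::OsNAC6 over NT, and none is tied to a measured difference of OsNAC6 itself.

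At 2-fold, 586 transcripts (1.83%) of 558 loci were higher and 641 (2%) of 609 loci were lower in the library labelled GOS2::OsNAC6, and these shares are the background for the gene groups that follow. The pair was otherwise alike: 84.5% of the transcripts tested were within 1.5-fold, the median log2 ratio was -0.01 and the quartiles were -0.26 and 0.25. At 4-fold, 61 were higher and 71 lower, and at 8-fold 24 and 16. Counting error alone left 132 of the higher and 142 of the lower transcripts with a 95% interval wholly past 2-fold. The transcripts just inside the limit stood at 1.0004 and -1.0003 on the log2 scale and those just outside at 0.999 and -0.999. The balance of the directions depended on the scaling between the libraries. On the authors' size factors it was 586 to 641, and on library totals, which move the median of all transcripts to -0.11, it was 417 to 869.

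The direction of the calls changed with the level. Between a mean of 10 and 20, 6.08% of transcripts were higher and 6.74% lower, and between 50 and 100 the shares were 1.43% and 2.22%. Above a mean of 1000, 37 transcripts (1.32%) were higher against 5 (0.178%) lower, and the median log2 ratio was 0.15. Abundant transcripts were thus called higher more often than lower, and the 3 nicotianamine synthases, 2 metallothioneins and the RCc3-like proteins are in that range.

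**Figure D1:**
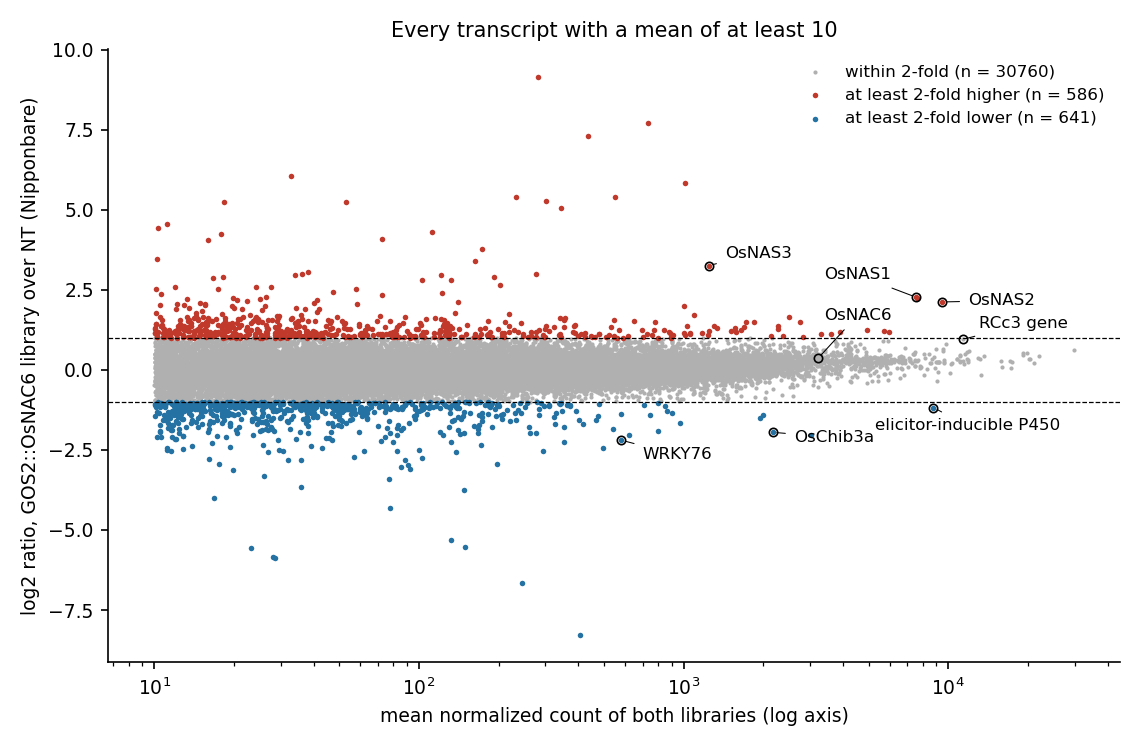
Log2 ratio of the library labelled GOS2::OsNAC6 over NT (Nipponbare) on the vertical axis against the mean normalized count of both libraries on a log axis, 1 point for each of 31987 transcripts. Red points (586) were at least 2-fold higher and blue points (641) at least 2-fold lower, dashed lines mark 2-fold, and OsNAC6 sits inside them at 0.37 while OsNAS1, OsNAS2 and OsNAS3 sit at 2.27, 2.12 and 3.25.

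Nicotianamine synthesis had the largest share of higher transcripts among the 57 lists examined, 30%. All 3 nicotianamine synthase genes were more than 4-fold higher. OsNAS1 (Os03t0307300-01) went from 2583 normalized counts in NT to 12474, OsNAS2 (Os03t0307200-01) from 3552 to 15424, and OsNAS3 (Os07t0689600-01) from 235 to 2250, which are log2 ratios of 2.27 ± 0.03, 2.12 ± 0.02 and 3.25 ± 0.09. OsNAS1 and OsNAS2 are neighbours on chromosome 3 with near-identical coding sequence, so how reads were shared between them is not known, while OsNAS3 lies on chromosome 7. The same ratios were 1.91, 1.74 and 2.69 in RCc3::OsNAC6, which shares the NT library, and -2.71, -3.06 and -0.30 in nac6.

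The steps after nicotianamine were less uniform. Nicotianamine aminotransferase starts the conversion of nicotianamine into mugineic acids. Its transcript Os02t0306401-00 stood at 1416 in NT and 2538 in GOS2::OsNAC6 (0.84 ± 0.04), short of 2-fold, and Os02t0302700-01 at 356 and 456. The 2 transcripts of Os06g0345200 were at -0.69 and -0.03, and an aminotransferase with a broader description, Os11t0644800-00, was lower (146 and 65.0, -1.16 ± 0.20). In all, 3 of 10 transcripts whose description names nicotianamine were higher and 1 was lower, against 1.83% and 2% of all transcripts.

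The methionine salvage cycle returns the methylthio group that nicotianamine synthesis releases to methionine, from which S-adenosylmethionine is made. Of 7 transcripts from only 4 loci, 6 had a ratio above 0 with a median of 0.86, and 1 was called. Isoforms of a locus share reads and are counted separately here. This was Os11t0216900-01, similar to the barley iron-deficiency gene IDI2 (188 and 399, 1.08 ± 0.12), whose other isoforms stood at 0.98 and 0.86. Methylthioribose kinase (Os04t0669800-01) stood at 1074 and 2055 (0.94 ± 0.05). S-adenosylmethionine synthetase 1 (Os05t0135700-01), which feeds the synthases, was at 11583 and 14710 (0.34 ± 0.02).

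Among 34 transcripts for iron, zinc and phytosiderophore transport, 3 were higher and 1 was lower, and 24 had a ratio above 0. Both isoforms of YSL15 (Os02g0650300), the transporter that brings ferric mugineic acid into rice roots, were higher, at 504 and 1183 (1.23 ± 0.07) for the first and 265 and 587 (1.146 ± 0.10) for the second. A neighbouring yellow stripe-like transcript, Os02t0649900-00, went from 6.27 to 33.3 (2.24 ± 0.50), close to the filter on low values. The member with most reads, the Nramp-type metal transporter Os07t0257200-01, stood at 3553 and 4383 (0.30 ± 0.03). The lower transcript was Os07t0232800-00, similar to the zinc transporter ZIP1, with 852 in NT and 234 in GOS2::OsNAC6 (-1.86 ± 0.10), and a non-coding transcript numbered next to it, Os07t0232850-00, stood at 221 and 59.1, so that the reads of the pair may be shared.

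Transcripts for iron stores were not called in either direction. None of 8 transcripts for ferritin and vacuolar iron transporter-like proteins was called, 2 had a ratio above 0, and the median was -0.26. The most read of them, Os06t0103800-01, stood at 900 and 710, and the lowest ratio, -0.89 ± 0.14, belonged to Os01t0508100-01, a ferritin-like protein (274 and 148).

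**Figure D2:**
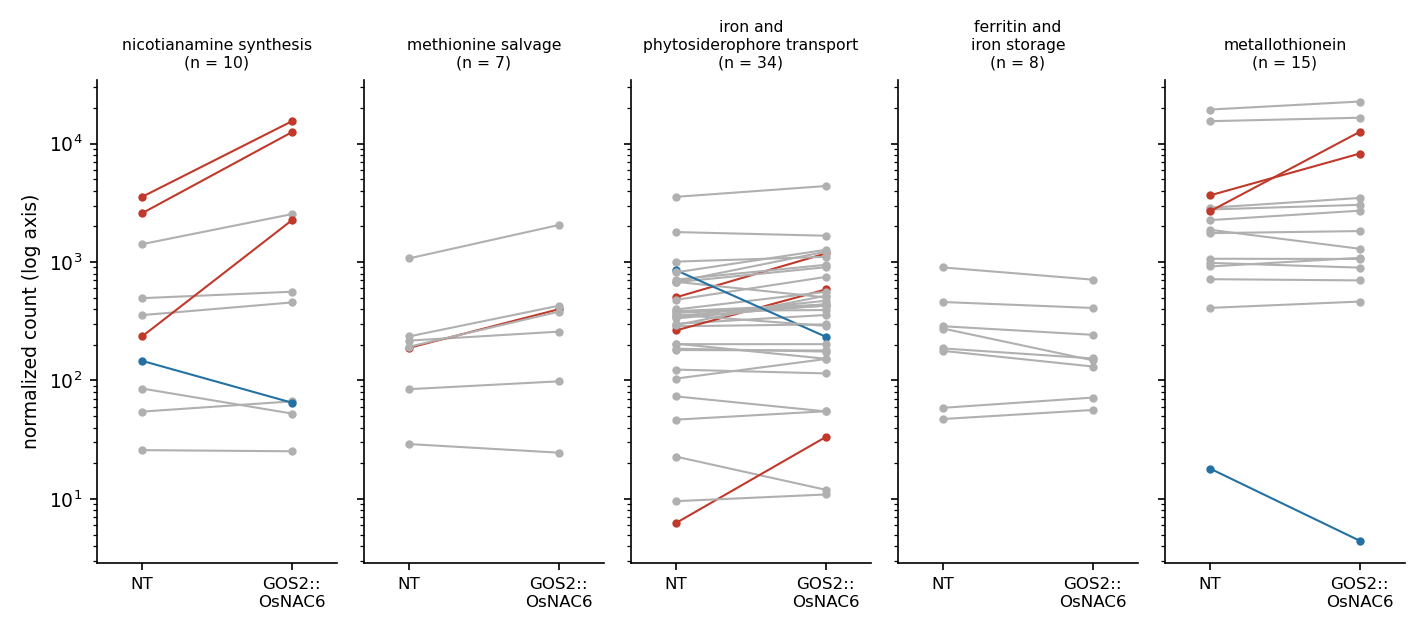
Normalized count on a log axis in the NT (Nipponbare) library and in the library labelled GOS2::OsNAC6, 1 line a transcript, for 10 transcripts of nicotianamine synthesis, 7 of methionine salvage, 34 of iron and phytosiderophore transport, 8 of ferritin and iron storage and 15 metallothioneins. Red lines were at least 2-fold higher, blue lines at least 2-fold lower and grey lines neither, and among the steepest red lines are those of the 3 nicotianamine synthases and of the metallothionein Os12t0570700-01 (2687 to 12585).

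Metallothioneins, small cysteine-rich proteins that bind metals, split by gene. Os12t0570700-01 went from 2687 to 12585 normalized counts (2.23 ± 0.03) and Os12t0568500-01 from 3658 to 8243 (1.17 ± 0.03), both type 1 genes in 1 stretch of chromosome 12. Their neighbours there stayed level: Os12t0571000-01 stood at 1066 and 1062 and Os12t0571100-01 at 15464 and 16547. Os05t0202800-00 was lower on few reads (18.0 and 4.43), and the other 12 of 15 stayed within 2-fold. Near-identical copies make the split of reads between these genes uncertain.

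Among other nutrient lists, sulphur and peptide transport genes were called in the higher direction and potassium transport genes in both. In the sulphur list 5 of 35 transcripts were higher and none lower, but 4 of the 5 were sulfotransferases, which move sulphate groups onto small molecules, such as Os11t0505300-01 (61.8 and 212, 1.76 ± 0.19) and Os01t0311600-01 (17.2 and 66.9, 1.90 ± 0.34), and the other was a sulphate transporter, Os04t0652400-01 (14.1 and 38.6). ATP sulfurylase, the first enzyme of sulphate assimilation (Os03t0743900-01), stood at 5655 and 7454. The list of peptide and low-affinity nitrate transporters gave 5 higher and none lower of 73. The most read of the 5 was Os06t0264500-01 (412 and 1149, 1.48 ± 0.08). Its description names a TGF-beta receptor region and no transporter, as does that of Os02t0580900-01, another of the 5. Potassium and sodium transport gave 3 higher and 4 lower of 54. A high-affinity potassium transporter, Os09t0448200-01, went from 267 to 66.7 (-1.99 ± 0.19), while a transcript similar to OsHAK1, Os07t0102100-02, went from 13.7 to 55.1 (1.94 ± 0.38). Transcripts whose descriptions name OsHAK1 did not move together. Another one similar to it, Os03t0575200-01, was lower (455 and 221, -1.04 ± 0.11), and Os04t0401700-01 stayed within 2-fold (0.28 ± 0.03). No transcript of 48 for ammonium and nitrate uptake and assimilation and none of 15 aquaporins was called, with medians of 0.15 and 0.26. The 2 called transcripts of 55 in the phosphate list were isoforms of 1 acid phosphatase, Os01g0191200, at 22.6 and 323 (3.78 ± 0.27) for the first and 27.6 and 298 (3.39 ± 0.25) for the second.

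Genes of the cell wall and the root surface shifted upward as groups, mostly by less than 2-fold. Of 48 expansins, which loosen the wall during growth, 44 had a ratio above 0 and the median was 0.41, with 3 higher and none lower. Of 135 class III peroxidases, which cross-link phenolics and make or use peroxide in the wall, 105 were above 0, the median was 0.34, and 8 (5.93%) were higher and none lower. Lipid transfer proteins had a median of 0.51 over 47 transcripts with 4 (8.51%) higher, and laccases and dirigent proteins, which act in lignin and lignan formation, a median of 0.33 over 26 with 5 (19.2%) higher. Of these 5, 2 laccases sat at the filter on low values (Os05t0458500-00 with 13 and 26 reads and Os05t0458600-02 with 11 and 28), 3 were left with a mean of at least 50 required, and 2 on library totals. Over all transcripts the median was -0.01. On library totals these 4 medians were 0.32, 0.24, 0.41 and 0.21, so the sign held under that scaling, and from the first count column alone the median of the lipid transfer proteins was 0.27. In RCc3::OsNAC6, over the same NT library, the 4 medians were 0.29, 0.30, 0.01 and 0.57 in the same order. In nac6 over NT (Hwayoung) they were 0.18, 0.18, 0.07 and -0.20.

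Called members with many reads give the size of the larger differences. OsEXPA4 (Os05t0477600-01) went from 201 to 507 (1.33 ± 0.11). The peroxidase Os01t0962700-01 went from 617 to 1383 (1.16 ± 0.06) while its ratio in RCc3::OsNAC6 was -0.81, and Os07t0676900-01 went from 2293 to 4948 (1.11 ± 0.03). The RCc3-like transcripts Os04t0554500-00 and Os04t0554600-00 went from 1215 to 3808 (1.65 ± 0.04) and from 515 to 1678 (1.70 ± 0.07), with the RCc3 gene itself at 0.95 ± 0.02. Laccase-25 (Os12t0259800-00) went from 728 to 1889 (1.37 ± 0.06), and a dirigent protein, Os07t0643800-01, from 102 to 254 (1.31 ± 0.15).

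Enzymes that remodel hemicellulose and pectin gave 8 higher and 2 lower of 117, with a median of 0.26. Xyloglucan endotransglycosylases cut and rejoin xyloglucan chains, and of these Os11t0539200-01 stood at 573 and 1489 (1.38 ± 0.07) and Os04t0604900-01 at 129 and 358 (1.47 ± 0.14). Cellulose synthases and their relatives had a median of 0.27 over 37 with none called, and arabinogalactan, extensin and FAS1 proteins 0.24 over 71 with 1 higher and 2 lower. GDSL lipases, some of which act on cutin and suberin, gave 2 higher and 1 lower of 47, among them Os01t0216000-01 at 461 and 1087 (1.23 ± 0.07).

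Genes of secondary metabolism were called in both directions. The list of UDP-glycosyltransferases, which add sugars to hormones and defence compounds, gave 12 higher (6.94%) and 2 lower of 173 transcripts from 154 loci. Among the higher ones were Os01t0119000-01 and Os01t0119000-02, described as an AER61 glycosyltransferase without the UDP name. Os07t0503300-01 and Os07t0503300-02, which share a locus, were also among them. Cytochrome P450 oxygenases gave 11 higher (6.75%) and 7 lower (4.29%) of 163. Os01t0735300-01, a UDP-glycosyltransferase, went from 7.18 to 48.0 (2.58 ± 0.47), and the P450 Os10t0439924-01 from 24.7 to 180 (2.82 ± 0.27). Among all transcripts tested, the largest loss in normalized counts was that of a P450 described as elicitor-inducible, Os09t0441400-01, with 12204 in NT and 5383 in GOS2::OsNAC6 (-1.18 ± 0.02), and its ratio in RCc3::OsNAC6 was -3.51. A transcript similar to P450 99A2, a family of the momilactone pathway in rice, was higher (Os04t0180400-01, 32.5 and 86.1). Phenylpropanoid genes gave 2 higher and none lower of 100, and phenylalanine ammonia-lyase, the entry enzyme, stood at 18798 and 25330 (Os02t0626100-01, 0.43 ± 0.01).

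Transport and detoxification held a few called loci. Of 81 ABC transporters 2 were higher and 1 lower, and the median was -0.15. Both isoforms of a multidrug resistance-like gene, Os01g0533900, were higher, with 166 and 515 (1.62 ± 0.12) for the first. Another MDR-like transcript, Os01t0695800-01, was lower, with 236 in NT and 58.8 in GOS2::OsNAC6 (-1.99 ± 0.20). Glutathione S-transferases, which conjugate toxic compounds, gave 2 higher and 1 lower of 58. Of 56 germin-like and cupredoxin proteins, extracellular proteins that include copper carriers, 3 were higher and 3 lower, such as Os06t0721800-01 (169 and 435, 1.36 ± 0.12) and Os11t0641500-01 (167 and 73.1, -1.18 ± 0.19). The 2 transcripts called in the low-oxygen list of 54 were both non-symbiotic hemoglobins, oxygen- and nitric oxide-binding proteins, on few reads: rHb2 (Os03t0226200-01) stood at 17.4 and 39.7 and an rHb4-like transcript (Os03t0234100-01) at 3.54 and 32.7.

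In the jasmonate list 4 of 61 transcripts were higher and none lower, and they came from 3 loci. Oxo-phytodienoic acid reductases act on the cyclic precursor of jasmonate or on related compounds. Both isoforms of 1 of them, Os06g0215900, went from 14.4 to 589 (5.26 ± 0.32) and from 19.0 to 670 (5.07 ± 0.29), while its neighbours Os06t0215600-02 and Os06t0216300-01 stood at 0.07 and -0.12. A non-coding transcript between their identifiers, Os06t0215925-00, went with it from 9.92 to 455, and the reads of the pair may be shared. The lipoxygenases Os03t0738600-01 (3483 and 7994, 1.198 ± 0.03) and Os10t0361000-01 (16.4 and 99.3, 2.53 ± 0.33) were the other loci called. The jasmonate repressors with a Tify domain stayed within 2-fold, such as Os07t0615200-01 at 5770 and 5955. Ethylene shares its precursor with nicotianamine, and 2 of 29 transcripts in the ethylene list were higher. A transcript described only as of the ACC synthase family, Os09t0453800-01, went from 972 to 2324 (1.26 ± 0.05). Its ratio was 0.87 in RCc3::OsNAC6 and -0.83 in nac6, and the family name does not show which reaction its protein carries out. ACC oxidase 1 (Os09t0451400-01) went from 14.9 to 33.4.

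The NB-ARC and disease resistance transcripts, which are tied to pathogen recognition, were lower as a group. Of 261 transcripts described as NB-ARC or disease resistance proteins, 26 (9.96%) were lower and 3 (1.149%) higher, only 45 had a ratio above 0, and the median was -0.41. Their levels were low, with a median of 73.7 normalized counts, and low transcripts are called more often in both directions. Within single levels they were lower too. Between a mean of 100 and 200, 6 of 56 (10.7%) were called lower against 1.39% of all transcripts of that level, with medians of -0.37 and -0.04, and between 200 and 500 it was 3 of 40 (7.5%) against 0.661%, with medians of -0.43 and -0.02. The median was below 0 on each of the 12 chromosomes, from -0.17 on chromosome 3 to -0.56 on chromosome 10, so the shift was spread over the genome. The median of the same transcripts was -0.04 in RCc3::OsNAC6 and -0.29 in nac6 over NT (Hwayoung).

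Single NB-ARC transcripts differed by moderate amounts, and reads of near-identical members may be shared between them. Os01t0799100-01 stood at 347 in NT and 117 in GOS2::OsNAC6 (-1.56 ± 0.15), Os11t0229500-01 at 72.2 and 21.96 (-1.67 ± 0.33) and Os11t0249000-01 at 49.0 and 9.86 (-2.20 ± 0.45). Against these, Os08t0296600-01 went from 11.4 to 30.5 and Os11t0677000-00 from 32.6 to 70.6. The member with most reads, similar to the helper receptor ADR1 of Arabidopsis (Os12t0586000-01), stood at 1269 and 1662 (0.39 ± 0.05), in the other direction from the family. The number of members called lower lay between 13 and 41 under the other settings tried at 2-fold, while their median stayed between -0.51 and -0.37.

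Kinase descriptions differed among themselves. Among descriptions shared by at least 20 loci, the largest share called lower was that of proteins with a protein kinase catalytic domain and no further name, 12 of 65 (18.5%) with a median of -0.41, and 2 were higher. These lower calls lay mostly at low levels. Between means of 10 and 20 they were 4 of 16, against 6.74% of all transcripts there, and between 20 and 50 they were 4 of 13, against 3.85%. Between 50 and 100 they were 3 of 8, between 100 and 200 1 of 13, and between 200 and 500 0 of 10. Other kinase texts lay nearer 0: the protein kinase core domain gave 6 lower and 1 higher of 134 with a median of -0.04, the serine/threonine protein kinase domain 3 lower of 82 with 0.07, and the serine/threonine protein kinase-related domain 6 lower of 96 with -0.01. Proteins with a leucine-rich repeat N-terminal domain gave 4 of 29 (13.8%) and none higher. Examples with the catalytic domain text were Os09t0570100-01 (285 and 104, -1.44 ± 0.16) and Os02t0633066-00 (75.04 and 16.3, -2.14 ± 0.36). In the list of DUF26 and wall-associated kinases 2 of 25 were lower and 1 higher, with a median of -0.14, and the wall-associated kinase Os09t0471800-01 stood at 650 and 310 (-1.06 ± 0.09).

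WRKY transcription factors, many of which act in defence, showed a tail rather than a shift. Of 83 transcripts from 73 loci, 12 (14.5%) were lower and 1 higher, yet the median was -0.09 and 36 were above 0. Isoforms that share reads count separately among the 12, such as Os09t0417600-01 and Os09t0417600-02 of WRKY76 (-2.20 and -2.03). WRKY76 and WRKY62, which are known as negative regulators of defence in rice, were lower together in 1 stretch of chromosome 9: Os09t0417600-01 stood at 955 and 208 (-2.20 ± 0.11) and Os09t0417800-01 at 1471 and 465 (-1.66 ± 0.07). A transcript similar to WRKY48, Os05t0478800-00, stood at 63.2 and 8.21 (-2.80 ± 0.47). The 1 higher transcript was similar to WRKY10, Os01t0186000-01 (72.7 and 167, 1.19 ± 0.18), and the member with most reads, WRKY68 (Os04t0605100-01), stood at 1992 and 2219. In RCc3::OsNAC6 the ratios of the WRKY76 and WRKY62 transcripts were -4.20 and -2.96.

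Among pathogenesis-related proteins, chitinases and glucanases, 8 of 144 (5.56%) were lower and 4 (2.78%) higher, with a median of 0.08 that became -0.02 on library totals. The lowest ratios among them were those of chitinases, which cut the chitin of fungal walls. OsChib3a (Os01t0660200-01) went from 3450 to 892 (-1.95 ± 0.05) and a transcript similar to chitinase 11 (Os03t0132900-01) from 549 to 158 (-1.79 ± 0.13). The higher ones included transcripts of other PR groups, such as one similar to PR-5 (Os04t0689900-01, 85.6 and 185) and one similar to PR-1a (Os02t0786500-01, 195 and 401). The most read PR-1a transcript, Os10t0191300-01, stood at 8893 and 10319.

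**Figure D3:**
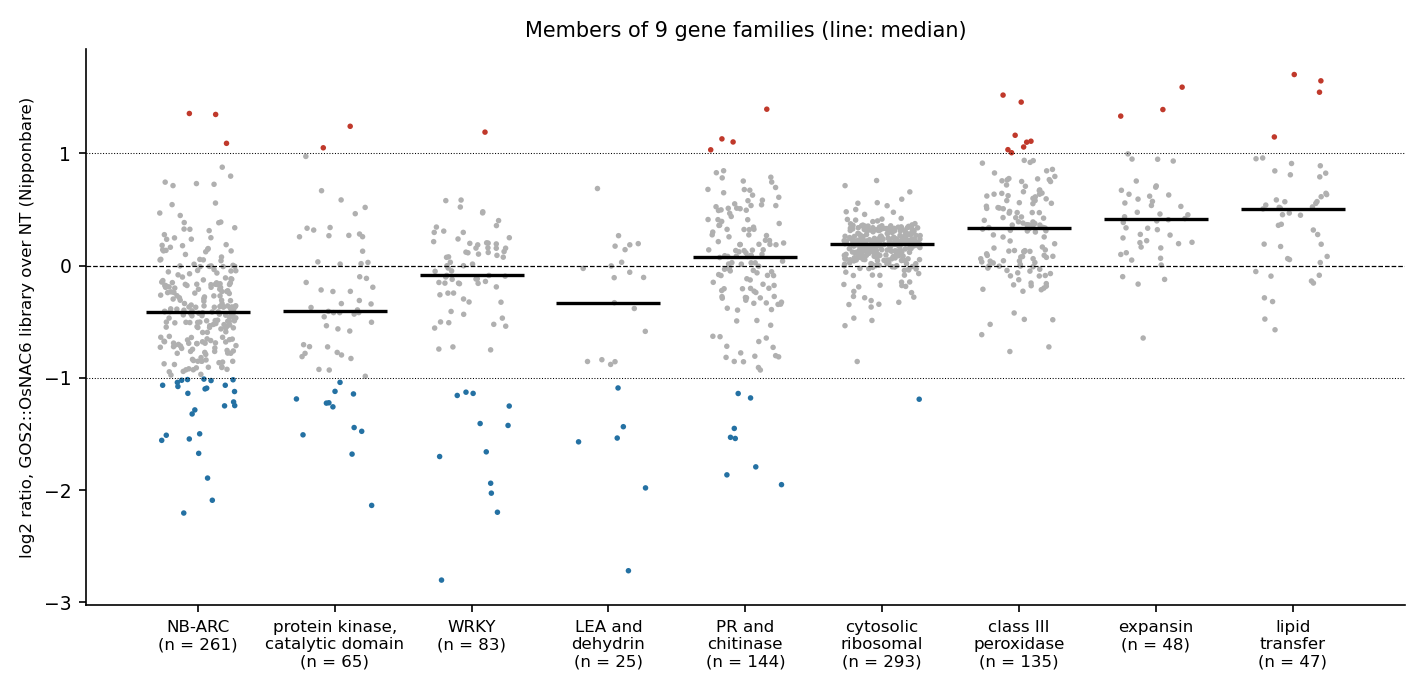
Log2 ratio of the library labelled GOS2::OsNAC6 over NT (Nipponbare) for every member that passed the filter in 9 gene families, 1 point a transcript, with the family median as a black line and dotted lines at 2-fold. The medians run from -0.41 for NB-ARC and protein kinase catalytic domain transcripts to 0.51 for lipid transfer proteins, and red and blue points are those at least 2-fold higher or lower.

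Proteins that protect dry cells had the largest share of lower transcripts among the lists. Late embryogenesis abundant (LEA) proteins and dehydrins, many of them induced by abscisic acid and water loss, gave 6 of 25 (24%) lower, none higher, a median of -0.33 and 7 above 0. Of the 6, 4 were RAB genes and their relatives of chromosome 11, where 4 of 6 neighbouring loci tested were lower: RAB16D (Os11t0453900-01) stood at 699 and 235 (-1.57 ± 0.10), a RAB21-like transcript (Os11t0454300-01) at 307 and 105 (-1.54 ± 0.16), a DHN1-like transcript (Os11t0451700-00) at 99.03 and 14.2 (-2.72 ± 0.37) and RAB16C (Os11t0454000-01) at 40.9 and 18.7. A LEA repeat protein on chromosome 3, Os03t0168100-01, went from 442 to 111 (-1.98 ± 0.15). The most read dehydrin, Os02t0669100-01, stood at 10543 and 9790, and with a mean of at least 50 required, the median of the list was -0.06. In RCc3::OsNAC6 the ratio of RAB16D was -4.51.

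Genes of the abscisic acid and calcium lists held few calls. In the abscisic acid and protein phosphatase 2C list 3 of 96 were lower and 1 higher. Abscisic stress ripening protein 1 (Os01t0959100-01) stood at 268 and 125 (-1.09 ± 0.15), the phosphatase 2C Os06t0698300-01 at 181 and 84.98, and the PM19-like membrane protein Os05t0381400-01 at 463 and 223. Calcium-binding EF-hand proteins and calmodulins gave 3 lower and 2 higher of 91, with Os03t0812400-01 at 259 and 85.4 (-1.59 ± 0.17). Heat shock proteins and chaperones gave 5 lower and 2 higher of 239, near the background, and the most read Hsp70, Os11t0703900-01, stood at 17885 and 22367. No transcript of 163 for antioxidant enzymes was called.

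Other regulators held few calls. None of 47 bZIP and none of 63 cytokinin and response regulator transcripts was called, and 1 of 64 NAC transcripts was lower (Os09t0552800-00, 18.1 and 6.55). The NAC transcript with most reads, Os05t0426200-02, stood at 10206 and 7964 (-0.36 ± 0.02). MYB proteins gave 1 higher of 100, basic helix-loop-helix proteins 3 higher of 102, AP2/ERF proteins 3 higher and 2 lower of 86, and the auxin list 1 in each direction of 149. The exceptions in size were a homeodomain-like transcript, Os11t0282700-01, with 4 reads in NT and 192 in GOS2::OsNAC6, an ethylene-responsive factor 2-like transcript, Os03t0860100-01 (33.2 and 109, 1.69 ± 0.26), and an auxin-responsive SAUR transcript, Os04t0662400-01 (13.6 and 45.7). No transcript of 19 in the circadian clock list was called.

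Transcripts of ribosomes, chromatin and respiration lay slightly above 0, and the medians for cell division and the cytoskeleton were near 0. Of 293 transcripts for cytosolic ribosomal proteins, 254 had a ratio above 0 with a median of 0.20, and only Os03t0816200-01 was called, as lower (59.9 and 25.7). Histones had a median of 0.20 over 62 with 54 above 0 and none called, and mitochondrial respiration genes 0.27 over 85 with 71 above 0 and 1 called. On library totals the medians were 0.09, 0.10 and 0.17. Cyclins and DNA replication proteins had a median of -0.05 over 108 with 1 lower, and tubulin, actin and kinesin proteins of -0.02 over 126 with 1 lower. A member of the last, alpha-tubulin Os11t0247300-01, had the largest gain in normalized counts of all transcripts tested, from 23600 to 36018 (0.61 ± 0.01), and the sum of that list was 0.38 higher on the log2 scale. The ribosomal proteins are among the abundant transcripts, and the median of all transcripts with a mean of at least 1000 was 0.15. At the other end, transposon-like descriptions gave 4 lower and none higher of 60 with a median of -0.33, led by a MuDR transposase, Os07t0248900-01 (155 and 21.2, -2.82 ± 0.31), whose ratio in RCc3::OsNAC6 was -0.08.

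**Figure D4:**
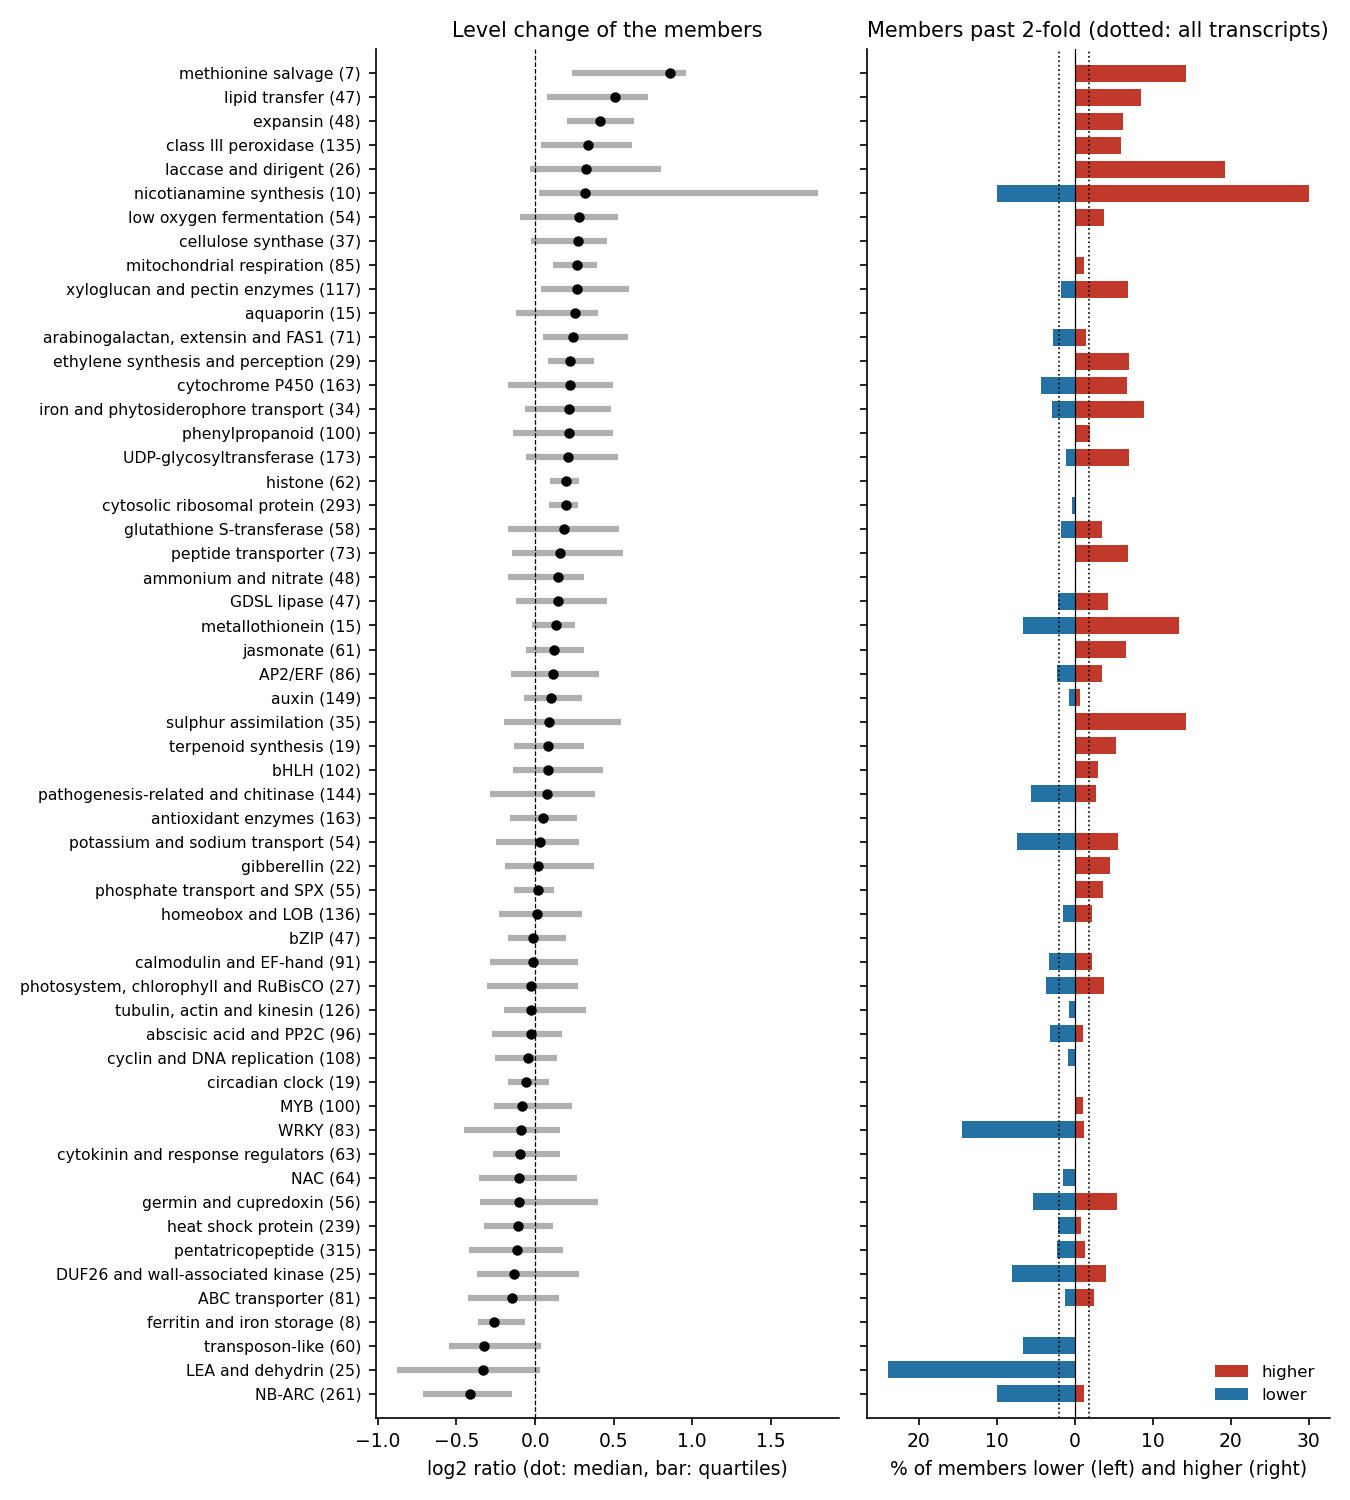
Gene lists ordered by their median log2 ratio, with the number of transcripts tested in brackets. The left panel gives the median (dot) and quartiles (bar), and the right panel the percentage of members at least 2-fold lower (blue, to the left) and higher (red, to the right), with dotted lines at the shares of all transcripts, 1.83% higher and 2% lower. Nicotianamine synthesis (30%) and laccases and dirigent proteins (19.2%) have the largest shares higher, and LEA proteins and dehydrins (24%) and WRKY factors (14.5%) the largest shares lower.

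The largest single differences often lay in transcripts with no known function. Among the 12 loci furthest in the higher and the 12 furthest in the lower direction with a mean of at least 100, 12 were described only as hypothetical. Os07t0511400-01 had no read in NT and 1029 in GOS2::OsNAC6, which makes it at least 413-fold higher against a floor of 3 reads. Os03t0299700-01 went from 6.004 to 1462 (7.71 ± 0.46) and Os02t0179600-01, a protein with a von Willebrand factor A domain, from 4.52 to 867 (7.30 ± 0.50). At the other end, Os11t0691100-00, described as similar to a protein kinase, was read 1779 times in NT and 3 times in GOS2::OsNAC6, a ratio of 493 with an exact 95% counting interval of 168 to 2393, and its neighbour Os11t0691050-00 stood at 488 and 3.87. Os11t0687200-03, a conserved gene of unknown function a little before them on the chromosome, stood at 294 and 5.40.

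Among transcripts of lower mean, 4 more were read in 1 of the libraries alone, all of them of unknown function. Os05t0580200-01 had no read in NT and 120 in GOS2::OsNAC6, at least 48.2-fold higher at the same floor. Os07t0472300-01, Os08t0300501-00 and Os11t0687200-01 had 102, 124 and 126 reads in NT and none in GOS2::OsNAC6, at least 28.4-, 34.2- and 34.9-fold lower. Together with Os07t0511400-01, these are the transcripts with at least 100 reads in 1 library and none in the other.

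Some of these values differed in the library labelled RCc3::OsNAC6. Os07t0442800-01 stood at 33.7 in NT and 1983 in GOS2::OsNAC6 (5.84 ± 0.22), and Os04t0115200-01 at 24.3 and 1076 (5.41 ± 0.25), with ratios of -0.11 and -0.36 in RCc3::OsNAC6. In nac6 over NT (Hwayoung) they stood at 5.93 and 6.21. Os07t0109700-01 went from 171 to 29.1 (-2.51 ± 0.27) with 0.12 in RCc3::OsNAC6. Others stood alike in both libraries over their common NT. Os07t0511400-01 had 1583 reads in RCc3::OsNAC6 beside none in NT, and Os11t0691100-00 had 6 reads there, while in the other cultivar it had none in NT (Hwayoung) and 3176 in nac6. The libraries labelled GOS2::OsNAC6 and RCc3::OsNAC6 are read against 1 NT library, so a value particular to it enters both ratios.

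Among the lower transcripts with a known domain, Os09t0356200-01, a malectin-like protein of the type found in receptors that bind carbohydrate, stood at 276 and 19.5 (-3.76 ± 0.31). The calmodulin-binding protein Os08t0360300-00 stood at 502 and 86.3 (-2.53 ± 0.16) and Os10t0137300-00, similar to BLN1-1, at 586 and 121 (-2.26 ± 0.14). Large losses in normalized counts were also those of the von Willebrand factor A protein Os11t0687100-01 (4852 and 1185, -2.03 ± 0.05) and of the aspartic peptidases Os10t0538200-01 (2871 and 1007) and Os10t0537800-01 (2892 and 1086).

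**Figure D5:**
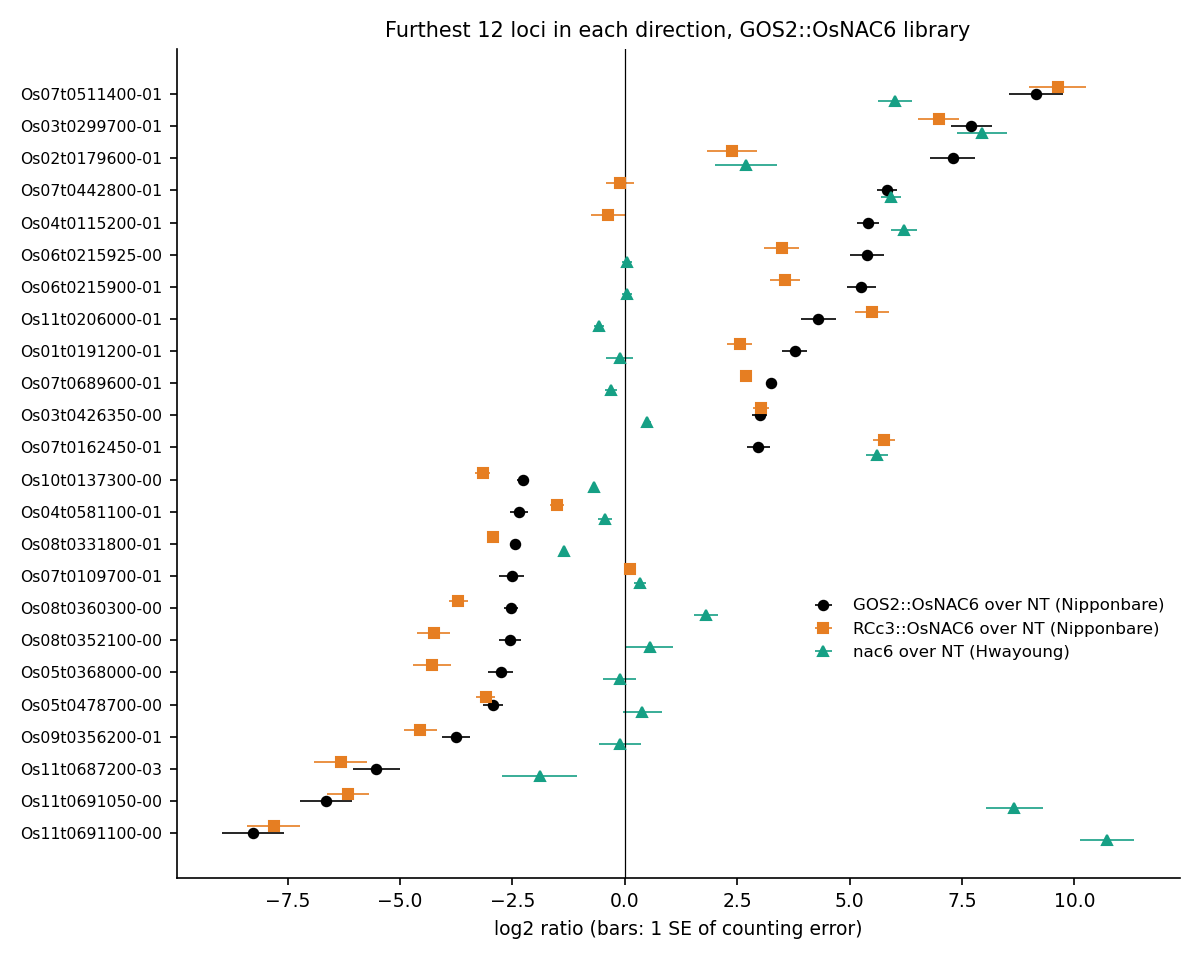
Log2 ratios of the 12 loci furthest in the higher and the 12 furthest in the lower direction in the library labelled GOS2::OsNAC6 (black circles), with the same transcripts in RCc3::OsNAC6 over the same NT (orange squares) and in nac6 over NT (Hwayoung) (green triangles), and bars of 1 SE of counting error. Os07t0442800-01, Os04t0115200-01 and Os07t0109700-01 lie far from 0 in black and near 0 in orange, at -0.11, -0.36 and 0.12.

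Called loci sometimes lay side by side, where overlapping annotations may share reads. Taking runs of at least 3 loci called in 1 direction with steps of at most 3 loci tested, there were 16 runs higher with 55 loci and 19 lower with 68 loci. The longest was on chromosome 6, where 6 of 7 neighbouring loci tested, from Os06g0513050 to Os06g0514800, were lower, all of unknown function. Os06t0513943-01 stood at 603 and 202 (-1.57 ± 0.11), the 6 ratios ran from -2.37 to -1.47, and 5 of them were between 0.02 and 0.15 in RCc3::OsNAC6. On chromosome 5, 5 of 7 loci from Os05g0478400 to Os05g0479800 were lower, among them 2 WRKY48-like genes and an NB-ARC gene.

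Runs of higher loci held genes of known families. On chromosome 10, 5 of 6 loci from Os10g0551800 to Os10g0552700 were higher: the root-specific RCc2 protein (Os10t0551800-00, 398 and 836), a lipid transfer protein (Os10t0552200-01, 48.3 and 108), Os10t0552300-01 (300 and 604), the Tfm5-like Os10t0552600-01 (2399 and 5426, 1.18 ± 0.03) and the tumor-related Os10t0552700-01 (1266 and 3275, 1.37 ± 0.04). On chromosome 2, 2 transferase family genes were in a run, Os02t0484200-01 from 45.1 to 340 (2.89 ± 0.20) and Os02t0483500-01 from 7.27 to 65.2 (3.00 ± 0.46), and another run there held 2 FAD-binding genes and a cellulase. On chromosome 3, the peroxidases Os03t0368300-01 (587 and 1203) and Os03t0369000-01 (117 and 252) formed a run with 2 hypothetical genes. Chromosome 11 had the largest share of lower transcripts, 67 of 1683 (3.98%), and 16 of these were at least 4-fold lower, while chromosome 3 had the smallest, 46 of 4290 (1.07%).

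The gene lists were made from words of the same descriptions, so shares read by description alone are no separate evidence for those groups. The descriptions with the largest shares higher were UDP-glucuronosyl/UDP-glucosyltransferase (11.1% of 81), transferase (8.70% of 46), cytochrome P450 (8.11% of 74) and an F-box text (7.69% of 26), and those with the largest shares lower were protein kinase, NB-ARC and leucine-rich repeat texts. Transcripts described only as hypothetical or unknown made up 31.2% of those tested, and 2.25% of them were higher and 2.34% lower. Of 1069 non-coding transcripts, 16 were higher and 25 lower, with Os05t0368000-00 at 180 and 25.6 (-2.76 ± 0.29). No locus had isoforms called in opposite directions among 4631 loci with at least 2 isoforms tested.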

How the data were processed

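Roots of 2-week-old rice were sequenced on strand-specific libraries, 1 library a group. Per the file headers and the study's methods, the authors counted reads per transcript, scaled them by DESeq size factors and deposited 3 pairwise tables of mean normalized counts, a signal never below 0, together with fold changes and p-values of their own, which were not used. The build is given as IRGSP-1.0 in the submitters' processing notes, and the aligner, the counting rule and the annotation release are not given in the sources used here. Each library is named in the tables by its sample number.

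The deposited means split into 2 columns of whole reads for each library, with 99.9% of the values of the GOS2::OsNAC6 library having 1 such split, and the reads of NT (Nipponbare) came out equal in both tables that hold it for 39372 of 39372 transcripts. The 2 columns are treated as 1 library, because nothing says they are separate plants. The second column held 0.944 times the reads of the first in NT and 0.943 times in GOS2::OsNAC6. Nothing says either whether the columns are 2 reads of the same fragments, which was not tested. If they are, fragments are counted more than once, and every SE and counting interval given here is too narrow. The split was tested on simulated data. A single read was worth, on average over the columns, 0.454 normalized counts in NT and 0.546 in GOS2::OsNAC6.

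The log2 ratio was log2((GOS2::OsNAC6 + 1)/(NT + 1)) wherever the mean of both libraries reached 10, and a call was 2-fold. The SE is that of Poisson counts enlarged by the mean chi-square between columns, 1.76 in NT and 1.77 in GOS2::OsNAC6, and it covers counting error only. The median SE was 0.157 and that of called transcripts 0.351. PCR copies were not marked by molecular identifiers. Python 3.11.15, numpy 2.4.6, pandas 2.3.3, scipy 1.17.1 and matplotlib 3.10.9 were used.

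The 57 gene lists are matches of words in the function column, and some members may match by word only. The members and lists were chosen with earlier results of these data known, and words that matched other proteins were taken out after values were seen. Named transcripts were OsNAC6, GOS2, RCc3 and UBQ1, the 12 loci furthest in each direction at a mean of at least 100, up to 3 called members a direction with a mean of at least 20 and the most abundant member of each list, the 6 longest runs and the 6 descriptions of at least 20 loci with the largest shares. Any other transcript named was chosen after its values were seen. Isoforms of 1 locus share reads. The alternatives were other pseudocounts, library totals, centring on the median, either count column, other filters, 1 transcript per locus and a 4-fold call.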

Additional observations from a re-analysis of the deposited data

Results flagged for a closer look

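Of 183 named transcripts called in the library labelled GOS2::OsNAC6, 2 were past 2-fold in the opposite direction in RCc3::OsNAC6, over the same NT (Nipponbare) library. The difference between the libraries was not tested, since each is 1 library. The chitinase Os08t0518900-01 stood at -1.86 ± 0.49 on the log2 scale in GOS2::OsNAC6 and at 1.14 ± 0.27 in RCc3::OsNAC6, from 72 reads in NT, 15 in GOS2::OsNAC6 and 157 in RCc3::OsNAC6. The transcript Os02t0782500-02, similar to a class II heat shock protein, stood at 1.11 ± 0.24 in GOS2::OsNAC6 and at -2.35 ± 0.46 in RCc3::OsNAC6, from 97, 175 and 17 reads.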

How the results depend on the processing

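The number of transcripts called depended most on the threshold and on the filter on low values, and less on the count column. Of transcripts at least 2-fold higher there were 586, and 896 from the first count column alone, 894 from the second, 249 with a mean of at least 50, 1780 with no filter on low values and 61 at 4-fold. Of those at least 2-fold lower there were 641, and 1010, 1029, 245, 1654 and 71 under the same settings in the same order. Both counts stayed within 1.5 times under pseudocounts of 0.5 and 5, library totals, centring on the median and 1 transcript per locus. Of the called transcripts, 447 higher and 485 lower ones kept their call in the first column alone. Of 183 named transcripts with a call, none lost it with a pseudocount of 0.5, 19 with a pseudocount of 5, 16 on library totals, 2 on centring, 27 in the first column alone and 20 in the second. The log2 ratio of the cellulase-like Os02t0123700-01 was 1.01 and became -0.40 in the first column alone, on 19 and 33 reads in all. On library totals the medians of 9 lists went from above to below 0, none of them further than 0.10 from 0 before. With 1 library a side, no replicate could be left out. No paired analysis was possible because no group has a second library.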
